A study of Homo sapiens with 21 samples.

Results

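The 49 genes described here carry out homologous recombination, Fanconi crosslink repair, the DNA damage checkpoint, end joining, PARP-dependent repair and mismatch repair. They were taken by gene symbol from the 60728 gene rows of the RNA-Seq table, where all 49 symbols were found. The RNA came from SK-N-BE(2) cells, an established line of human neuroblastoma that carries extra copies of MYCN. These were transduced with lentiviral shRNA, a short hairpin RNA that lowers its target transcript, and 3 libraries were made for each of 7 conditions at 72 h. The conditions, named as on the labels, are a non-silencing Control, shARID1A.2 and shARID1A.4 (ARID1A silencing), shARID1B.2 and shARID1B.3 (ARID1B silencing), and shARID1A/B.2.3 and shARID1A/B.4.2 (silencing of both). All conditions, Control included, are transduced cells of 1 line, and no source used here says whether the libraries of a condition came from separate cultures, so p-values measure the spread between these libraries, which may be technical. ARID1A and ARID1B are alternative subunits of the BAF chromatin remodelling complex.

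Homologous recombination copies an intact sister chromatid to mend a broken one, and so works in the S and G2 phases of the cell cycle. Broken ends are cut back to single strands, the BRCA proteins load a recombinase on them, and helicases undo the joined molecules afterwards. The Fanconi proteins open crosslinked DNA for the same machinery. End joining ligates ends directly and works throughout the cell cycle. The kinases ATM and ATR sense damage and act through CHEK2 and CHEK1. Transcripts of many recombination and Fanconi genes are known to rise in proliferating cells, and those of the end-joining factors and the large kinases much less so.

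The silenced genes were checked first. ARID1A was at 6097, 6374 and 6463 in Control, 2169, 2159.9 and 2109 in shARID1A.2, 2289, 2157 and 2284 in shARID1A.4, 1962, 1882 and 1916 in shARID1B.2, 2507, 2479.9 and 2449.7 in shARID1B.3, 5510.3, 5752 and 5714 in shARID1A/B.2.3 and 5589, 5352 and 5379 in shARID1A/B.4.2. ARID1B was at 5793, 5804 and 5791 in Control, 2252, 2249 and 2224 in shARID1A.2, 3065, 3109.7 and 3126 in shARID1A.4, 5056, 4913 and 5043 in shARID1B.2, 6182, 6038 and 6053 in shARID1B.3, 2540.5, 2651 and 2607 in shARID1A/B.2.3 and 1886, 1881 and 1955 in shARID1A/B.4.2. These are normalized values, that is, reads on a gene divided by 1 size factor per library. ARID1A was low in the libraries labelled shARID1A.2, shARID1A.4, shARID1B.2 and shARID1B.3, with log2 fold changes against Control of -1.56, -1.49, -1.72 and -1.35, against -0.16 and -0.21 in those labelled shARID1A/B. ARID1B was low in the libraries labelled shARID1A.2, shARID1A.4, shARID1A/B.2.3 and shARID1A/B.4.2, with -1.37, -0.90, -1.16 and -1.60, against -0.21 and 0.07 in those labelled shARID1B. The libraries labelled for ARID1A silencing therefore had both transcripts low, those labelled for ARID1B silencing had ARID1A low, and those labelled for silencing of both had mainly ARID1B low. This goes against the labels, which are kept as written below, and every direction stated for a label is a direction for the libraries that carry it.

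The deposited values gave back whole reads, 27954334 to 41077638 per library. Adrenergic neuroblastoma markers were present in the 3 Control libraries, MYCN at 120355, 123481 and 124192 and HAND2 at 19025, 19481 and 19187. Of the mesenchymal markers, PRRX1 was listed at 0 in them. The others were present, VIM at 55410, 52944 and 54293, COL1A1 at 12727, 13041 and 13019 and SNAI2 at 632, 646 and 606, along with FN1, NOTCH2, YAP1 and CD44. The standard deviation of a member over the 3 libraries of a condition was 0.061% to 14.8% of its mean, with a median of 2.49%.

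Most repair genes were lower than Control in 5 of the 6 silenced conditions and were split in the sixth, shARID1B.3. Runs of 6 values below start with shARID1A.2, go on to shARID1A.4, then shARID1B.2, shARID1B.3, shARID1A/B.2.3, and end with shARID1A/B.4.2. In this order, 41, 38, 42, 14, 42 and 39 of the 49 members were lower and 5, 8, 4, 19, 5 and 3 were higher. A call is an adjusted p under 0.05 in limma's moderated test on log2(value + 1), adjusted by Benjamini-Hochberg over the 18584 genes that passed a filter on low reads, and all 49 members passed it. Of all genes tested, 38.2%, 36.6%, 34%, 32%, 34% and 36.1% were lower and 37.9%, 37%, 31.6%, 31.9%, 35.2% and 35.1% were higher, so the members' shares called lower were above the background in every condition but shARID1B.3. The member median of the log2 fold change was -0.58, -0.65, -0.37, -0.00079, -0.85 and -0.44, where that of all genes lay between 0.01 and 0.02. A fall of at least 1 on the log2 scale was reached by 6, 13, 0, 0, 19 and 5 of the 49 members, against 10.7%, 12%, 5.12%, 6.58%, 9.1% and 8.14% of all genes. The members' share was well above that of all genes in shARID1A.4 and shARID1A/B.2.3 only. It lay close to it in shARID1A.2 and shARID1A/B.4.2 and below it in both shARID1B conditions. No member rose by as much, and the share of all genes that did was not counted. The comparisons with Control share the same 3 Control libraries. In bulk RNA, fewer cells in S or G2 phase and less RNA of a gene per cell cannot be told apart.

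BLM, PRKDC, CHEK1, FANCI, BRCA1, POLQ, EXO1, LIG4, TOPBP1, FANCM and MSH6 were lower in all 6 comparisons, and 32 members were lower in at least 5. These are 22.4% and 65.3% of the members, where 7.54% and 17.1% of all genes tested met the same rules. RAD52 and PMS2, or 4.08% of the members, were higher in all 6, against 6.52% of all genes. ATM, RAD50, PMS2 and RAD52 were the 4 members that were never called lower (8.16%, against 32.5% of all genes), and 17 members were lower in some conditions and higher in others (34.7%, against 41.8%). Calls of a gene in several comparisons rest in part on the same Control libraries. The split moved with the scaling of the libraries. For shARID1A/B.4.2 it was 39 lower and 3 higher as deposited, 37 lower and 9 higher with upper-quartile normalization in edgeR, and 35 lower and 9 higher with values scaled to total reads. For shARID1B.3 it was 14 lower and 19 higher as deposited and 11 lower and 24 higher with upper-quartile normalization. Scaling to total reads moved the median of all genes to 0.19 in shARID1A.2, 0.15 in shARID1B.2 and 0.20 in shARID1A/B.4.2, and differences below this size are read relative to it.

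**Figure D1:**
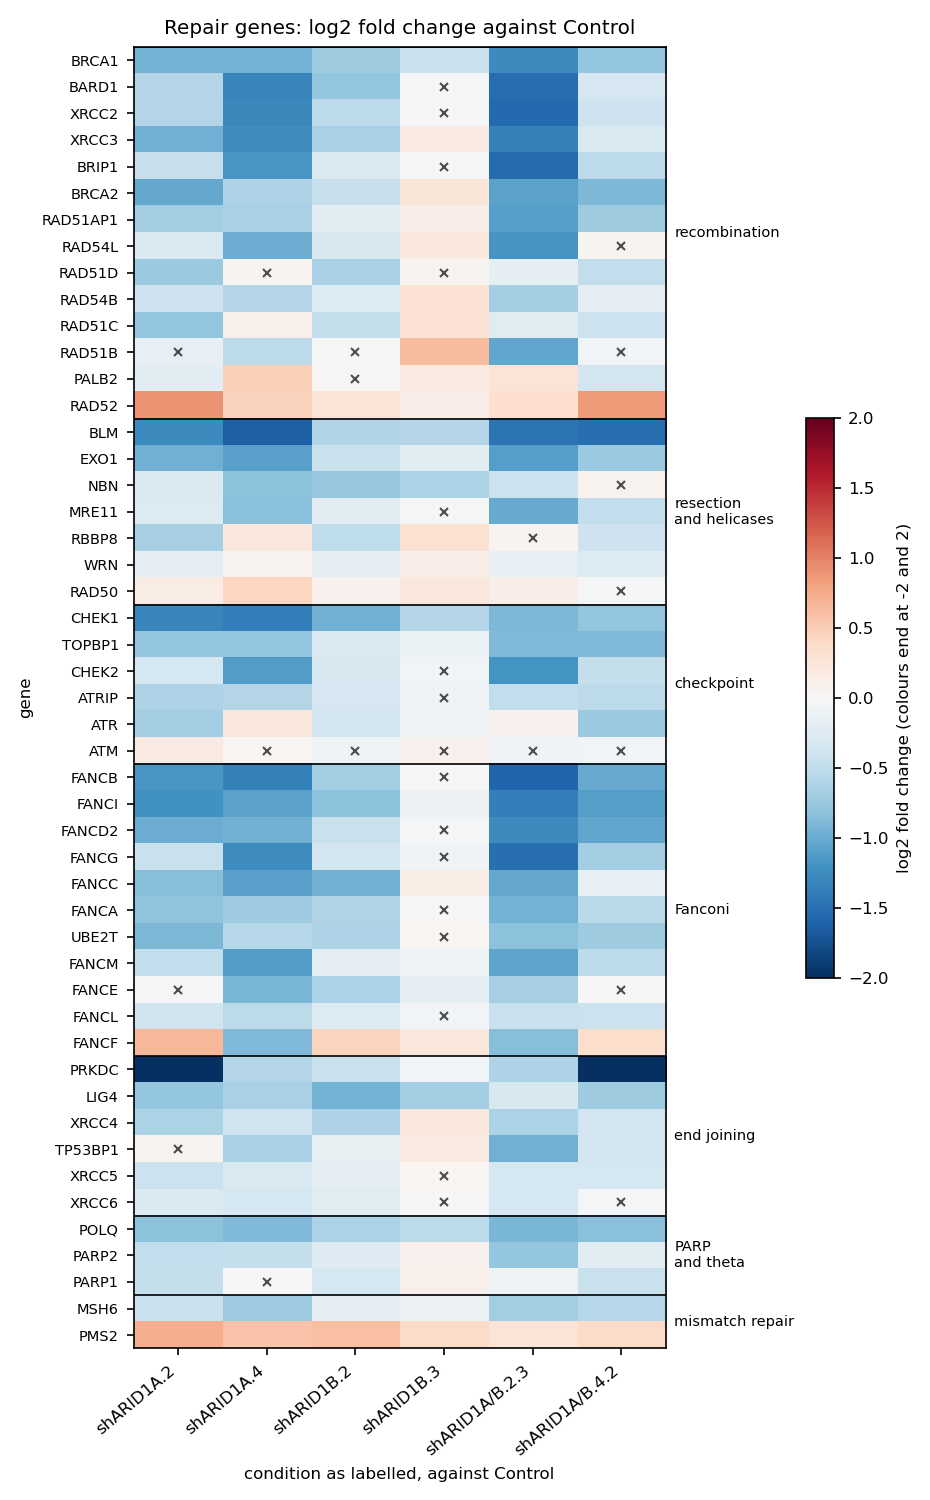
Log2 fold change of the 49 repair genes (rows, by role) in the 6 silenced conditions against Control (columns, as labelled), mean of 3 libraries each. Blue is lower and red is higher, a cross marks a difference not called at an adjusted p of 0.05, and the colours end at -2 and 2, which PRKDC exceeds in shARID1A.2 and shARID1A/B.4.2.

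In Control, the level per kilobase of exon was highest for the end-joining genes XRCC6 at 6383 ± 124 (SD, n = 3) normalized reads per kilobase and XRCC5 at 5210.1 ± 47.6, followed by PARP1 at 3058 ± 27.5, UBE2T at 2429 ± 73.6 and PRKDC at 2170.0 ± 14.7. The lowest was RAD51B at 23.1 ± 1.35, whose fold changes had the largest SE of the members. BRCA1 stood at 378 ± 4.22, BLM at 329.6 ± 1.83, CHEK1 at 711 ± 23.3, ATM at 258 ± 11.8 and ATR at 291 ± 1.92 on the same scale. Exon length here joins all exons annotated for a gene, 23.97 kilobases for ATM. Levels may thus be understated, and unevenly between genes.

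Among the 14 recombination genes, 12, 10, 11, 1, 12 and 11 were lower and 1, 3, 1, 9, 2 and 1 were higher. Counts by role, here and below, stand beside 38.2%, 36.6%, 34%, 32%, 34% and 36.1% of all genes lower. The shares of all genes higher were 37.9%, 37%, 31.6%, 31.9%, 35.2% and 35.1%. BRCA1 (ENSG00000012048.23, chromosome 17, 43044295 to 43170245, minus strand, GRCh38) is a ubiquitin ligase that promotes end resection and recombinase loading. BRCA1 was at 3512, 3435 and 3464 in Control, 1822, 1805 and 1791 in shARID1A.2, 1754, 1835 and 1795 in shARID1A.4, 2159, 2138 and 2089.7 in shARID1B.2, 2593, 2538 and 2552 in shARID1B.3, 1455, 1441 and 1401 in shARID1A/B.2.3 and 1922, 2049 and 2024 in shARID1A/B.4.2. All 18 silenced libraries lay below the 3 Control libraries, with log2 fold changes of -0.94, -0.95, -0.70, -0.44, -1.28 and -0.80 (SE 0.028 each, largest adjusted p = 9.1e-13 among called differences). BRCA2 loads the recombinase on single-stranded DNA. BRCA2 was at 1735, 1583 and 1674 in Control, 776, 883 and 801 in shARID1A.2, 1097, 1052 and 1097 in shARID1A.4, 1279, 1145 and 1221 in shARID1B.2, 1971, 1877 and 2028 in shARID1B.3, 802, 802 and 774 in shARID1A/B.2.3 and 897, 826 and 948 in shARID1A/B.4.2. BRCA2 was lower in 5 conditions and higher in shARID1B.3, with no overlap with Control in any of them, at log2 fold changes of -1.02, -0.62, -0.45, 0.24, -1.07 and -0.90 (SE 0.052 each, largest adjusted p = 0.00039 among called differences). RAD51AP1, a cofactor of strand invasion, had the same signs. RAD51AP1 was at 1576, 1605 and 1587 in Control, 921, 1002 and 1010.1 in shARID1A.2, 1010.0, 968 and 1059 in shARID1A.4, 1423, 1312 and 1344 in shARID1B.2, 1690.4, 1772 and 1749 in shARID1B.3, 769, 733 and 713 in shARID1A/B.2.3 and 923, 1007 and 970.3 in shARID1A/B.4.2. Its log2 fold changes were -0.70, -0.65, -0.23, 0.13, -1.11 and -0.72 (SE 0.044 each, largest adjusted p = 0.014 among called differences). RAD52, an annealing protein, went the other way. RAD52 was at 429.9, 476 and 415 in Control, 821, 837 and 806 in shARID1A.2, 602, 604 and 601 in shARID1A.4, 544, 524 and 509.5 in shARID1B.2, 477, 489 and 482 in shARID1B.3, 507, 585 and 576 in shARID1A/B.2.3 and 805, 796 and 789 in shARID1A/B.4.2. RAD52 rose in all 6 conditions, most in shARID1A.2 and shARID1A/B.4.2, with log2 fold changes of 0.90, 0.45, 0.26, 0.14, 0.34 and 0.86 (SE 0.053 each, largest adjusted p = 0.029 among called differences).

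BARD1, the partner of BRCA1, BRIP1, a helicase that binds BRCA1, and the paralog XRCC2 fell most in shARID1A.4 and shARID1A/B.2.3. BARD1 had log2 fold changes of -0.58, -1.31, -0.79, -0.04, -1.52 and -0.33, BRIP1 of -0.46, -1.17, -0.31, -0.04, -1.55 and -0.52 and XRCC2 of -0.59, -1.30, -0.53, -0.03, -1.55 and -0.41, and none of the 3 passed the test in shARID1B.3. RAD54L, a motor protein of strand exchange, had -0.28, -0.99, -0.32, 0.21, -1.17 and 0.06, where the shARID1A/B.4.2 value did not pass. Its relative RAD54B fell by less, with -0.41, -0.58, -0.27, 0.29, -0.68 and -0.19. XRCC3 had -0.96, -1.24, -0.65, 0.16, -1.36 and -0.31. The other recombinase paralogs moved unequally. RAD51C fell most in shARID1A.2 and was higher in shARID1A.4 and shARID1B.3 (-0.79, 0.10, -0.47, 0.29, -0.25 and -0.43), RAD51D had -0.74, 0.05, -0.66, 0.06, -0.20 and -0.49 with no call in shARID1A.4 or shARID1B.3, and RAD51B had -0.16, -0.53, 0.02, 0.63, -1.05 and -0.06 with 3 of its 6 values called. PALB2, which links BRCA1 to BRCA2, was higher in 3 conditions, lower in shARID1A.2 and shARID1A/B.4.2 and not called in shARID1B.2 (-0.21, 0.48, 0.02, 0.18, 0.27 and -0.37).

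Of the 7 resection and helicase genes, 6, 4, 6, 3, 5 and 5 were lower and 1, 3, 1, 3, 1 and 0 were higher. BLM (ENSG00000197299.12, chromosome 15, 90717327 to 90816165, plus strand) is the helicase that dissolves double Holliday junctions, and it had the lowest mean log2 fold change of all members. BLM was at 2213, 2198 and 2189 in Control, 897, 871 and 949.9 in shARID1A.2, 719.6, 706 and 706 in shARID1A.4, 1453, 1422 and 1464 in shARID1B.2, 1432, 1399.6 and 1548 in shARID1B.3, 814, 814 and 771 in shARID1A/B.2.3 and 752, 776 and 784 in shARID1A/B.4.2. No silenced library reached the Control range, and the log2 fold changes were -1.28, -1.63, -0.61, -0.59, -1.46 and -1.51 (SE 0.039 each, largest adjusted p = 1.7e-12 among called differences). EXO1 is the exonuclease of long-range resection. EXO1 was at 3384, 3444 and 3389 in Control, 1788, 1753 and 1693 in shARID1A.2, 1568, 1626 and 1626 in shARID1A.4, 2496, 2535 and 2445 in shARID1B.2, 2873, 2917 and 2992 in shARID1B.3, 1640.3, 1545 and 1588 in shARID1A/B.2.3 and 2049.6, 2035 and 2003 in shARID1A/B.4.2. EXO1 was lower in all 18 silenced libraries, with log2 fold changes of -0.96, -1.08, -0.45, -0.22, -1.10 and -0.75 (SE 0.029 each, largest adjusted p = 3.6e-07 among called differences). RAD50 holds broken ends together in the MRN complex with MRE11 and NBN. RAD50 was at 4052, 4236 and 4185 in Control, 4574, 4636 and 4543 in shARID1A.2, 5593, 5734 and 5546 in shARID1A.4, 4658, 4289 and 4354 in shARID1B.2, 5163, 4689 and 4759 in shARID1B.3, 4719.5, 4469 and 4557 in shARID1A/B.2.3 and 4151, 3987 and 4152 in shARID1A/B.4.2. RAD50 was higher in 5 conditions and overlapped with Control in shARID1A/B.4.2, where its sign turned positive under TMM, upper-quartile and total-read scaling. Its log2 fold changes were 0.14, 0.44, 0.09, 0.23, 0.14 and -0.02 (SE 0.034 each, largest adjusted p = 0.019 among called differences).

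The 3 subunits of the MRN complex thus differed in direction. MRE11, its nuclease, had log2 fold changes of -0.27, -0.83, -0.21, -0.03, -1.01 and -0.49 and passed the test in all but shARID1B.3. NBN had -0.29, -0.82, -0.76, -0.63, -0.44 and 0.06 and passed in all but shARID1A/B.4.2. RBBP8, which starts resection with MRN, was lower in shARID1A.2, shARID1B.2 and shARID1A/B.4.2 and higher in shARID1A.4 and shARID1B.3 (-0.67, 0.22, -0.51, 0.31, 0.06 and -0.41). WRN, a helicase of the BLM family, moved little, with -0.20, 0.08, -0.20, 0.14, -0.16 and -0.27.

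Of the 6 checkpoint genes, 5, 4, 5, 3, 4 and 5 were lower and 1, 1, 0, 0, 1 and 0 were higher. CHEK1 (ENSG00000149554.13, chromosome 11, 125625136 to 125676255, plus strand) is the kinase downstream of ATR that halts the cycle when replication stalls. CHEK1 was at 4839, 4555 and 4600.2 in Control, 1935, 1930.2 and 1824 in shARID1A.2, 1766, 1803 and 1826 in shARID1A.4, 2379, 2413 and 2396 in shARID1B.2, 3067, 3078 and 3185 in shARID1B.3, 2584, 2498 and 2444 in shARID1A/B.2.3 and 2712, 2724 and 2692 in shARID1A/B.4.2. Control and silenced libraries did not overlap, and CHEK1 fell in all 6 conditions, with log2 fold changes of -1.30, -1.37, -0.96, -0.58, -0.89 and -0.78 (SE 0.029 each, largest adjusted p = 8.2e-15 among called differences). ATM (ENSG00000149311.18, chromosome 11, 108222484 to 108369102, plus strand) is the kinase that responds to double-strand breaks. ATM was at 6491, 5935 and 6125 in Control, 6978, 7001 and 6827 in shARID1A.2, 6572, 6119 and 6393 in shARID1A.4, 6125, 5469 and 5852 in shARID1B.2, 6764, 6288 and 6559.9 in shARID1B.3, 5715, 6097 and 5764 in shARID1A/B.2.3 and 6161, 5540.2 and 6102 in shARID1A/B.4.2. ATM passed the test in shARID1A.2 alone, at 0.17 (SE 0.042, adjusted p = 0.0011), and overlapped with Control in the other 5 conditions, where its log2 fold changes were 0.04, -0.09, 0.08, -0.08 and -0.06. Those in shARID1B.2 and shARID1A/B.4.2 turned positive with upper-quartile or total-read scaling. ATR is the kinase that responds to stalled forks. ATR was at 3649, 3649.9 and 3608 in Control, 2179.6, 2258 and 2274 in shARID1A.2, 4187, 4229 and 4170.5 in shARID1A.4, 2896, 2697 and 2781 in shARID1B.2, 3416, 3395 and 3381 in shARID1B.3, 3767, 3941 and 3914 in shARID1A/B.2.3 and 2227, 2114 and 2215 in shARID1A/B.4.2. ATR was lower in shARID1A.2 and shARID1A/B.4.2, lower by less in shARID1B.2 and shARID1B.3, and higher in shARID1A.4 and shARID1A/B.2.3, with log2 fold changes of -0.70, 0.21, -0.38, -0.10, 0.09 and -0.73 (SE 0.028 each, largest adjusted p = 0.0054 among called differences).

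ATRIP, the partner that brings ATR to single-stranded DNA, had log2 fold changes of -0.61, -0.59, -0.33, -0.07, -0.49 and -0.52, with a call in all but shARID1B.3. TOPBP1, which activates ATR, was lower in all 6 conditions (-0.77, -0.77, -0.30, -0.14, -0.89 and -0.88). CHEK2, the kinase below ATM, was lower in all but shARID1B.3, by most in shARID1A.4 and shARID1A/B.2.3 (-0.36, -1.11, -0.33, -0.06, -1.20 and -0.48). CHEK2, PMS2 and FANCD2 have near-identical pseudogene copies, and RSEM, which the submitters' processing notes name, divides reads shared between similar transcripts by estimation, so their values are less certain than those of other members.

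**Figure D2:**
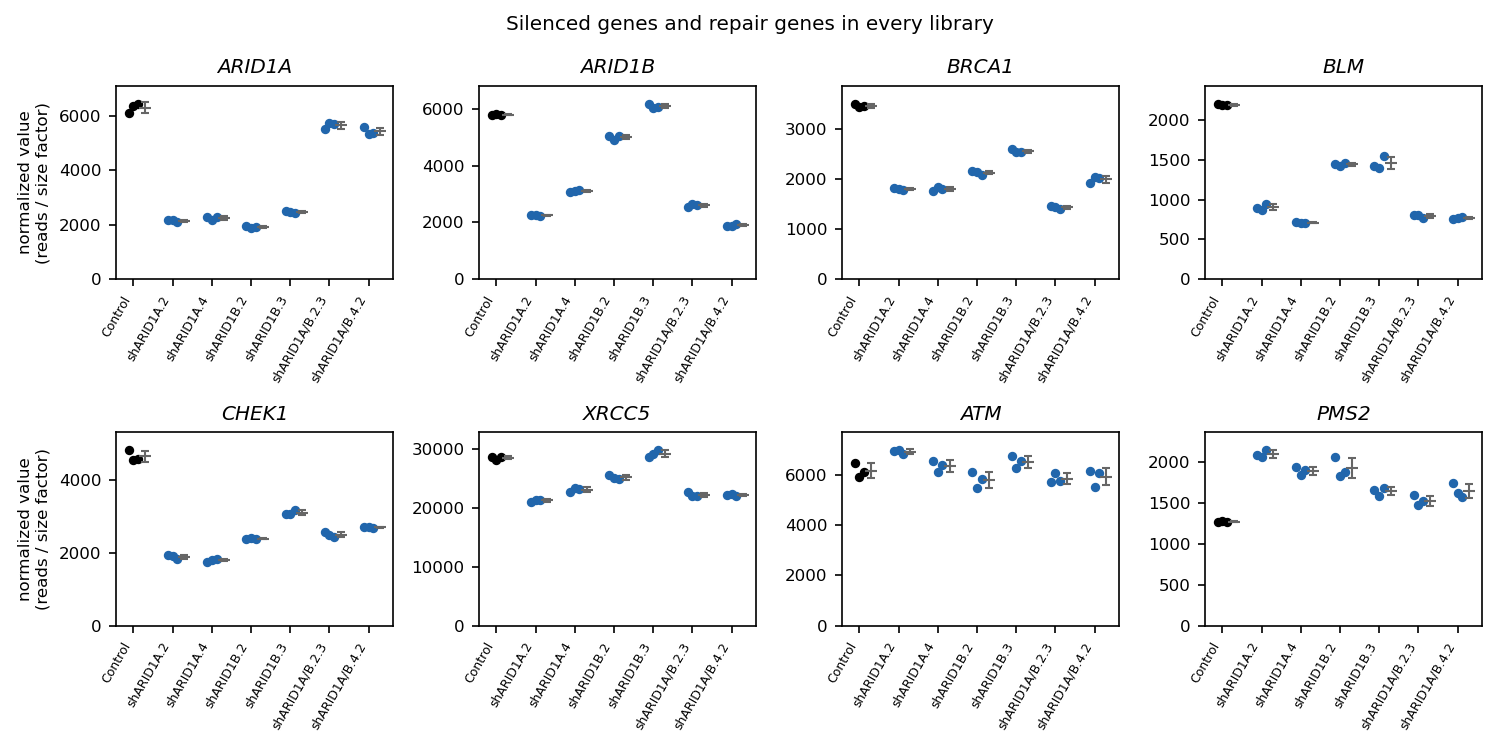
Normalized values (reads divided by the library's size factor, vertical axis from 0) of ARID1A, ARID1B and 6 repair genes in each of the 21 libraries, by condition as labelled. Dots are libraries, bars beside them give the mean ± SD of 3, and Control is black. BRCA1, BLM and CHEK1 are below Control throughout, XRCC5 is below it in all but shARID1B.3, ATM overlaps with it in 5 conditions and PMS2 is above it.

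Of the 11 Fanconi genes, 9, 11, 10, 3, 11 and 9 were lower and 1, 0, 1, 2, 0 and 1 were higher. FANCD2 and FANCI form the clamp that marks a crosslink once UBE2T, the ubiquitin-conjugating enzyme, and the core complex have modified it. FANCD2 was at 1473, 1495 and 1485 in Control, 742, 791 and 698 in shARID1A.2, 791, 749 and 748 in shARID1A.4, 1049.5, 1097 and 1112 in shARID1B.2, 1401, 1441 and 1483 in shARID1B.3, 664, 579 and 609 in shARID1A/B.2.3 and 729, 719 and 715 in shARID1A/B.4.2. UBE2T was at 4153, 3939 and 3947 in Control, 2082, 2237 and 2155 in shARID1A.2, 2709, 2671 and 2742 in shARID1A.4, 2626, 2648 and 2598 in shARID1B.2, 3961, 4138 and 4211 in shARID1B.3, 2375, 2246 and 2221 in shARID1A/B.2.3 and 2545, 2443 and 2389 in shARID1A/B.4.2. FANCD2 had log2 fold changes of -0.998, -0.96, -0.45, -0.04, -1.27 and -1.04 (SE 0.047 each, largest adjusted p = 7.6e-09 among called differences), and FANCI had -1.22, -1.07, -0.83, -0.12, -1.36 and -1.10. UBE2T had -0.89, -0.57, -0.61, 0.03, -0.82 and -0.71 (SE 0.033 each, largest adjusted p = 6.3e-14 among called differences). FANCD2 and UBE2T overlapped with Control in shARID1B.3 and were below it elsewhere. FANCB, a core complex subunit encoded on the X chromosome, had the lowest mean log2 fold change of the Fanconi genes. FANCB was at 471, 434 and 448 in Control, 178, 227 and 197 in shARID1A.2, 179, 174 and 175 in shARID1A.4, 275, 288 and 277 in shARID1B.2, 436, 459 and 444 in shARID1B.3, 147, 156 and 144 in shARID1A/B.2.3 and 220.4, 212 and 239 in shARID1A/B.4.2. Its log2 fold changes were -1.17, -1.35, -0.68, -0.01, -1.59 and -1.01 (SE 0.075 each, largest adjusted p = 1.8e-08 among called differences), and the shARID1B.3 value, which did not pass, turned positive under TMM, upper-quartile and total-read scaling.

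FANCF, the adaptor of the core complex, differed from its partners. FANCF was at 802, 799 and 799 in Control, 1256, 1281 and 1255 in shARID1A.2, 428, 434 and 431 in shARID1A.4, 1084, 1086 and 1112 in shARID1B.2, 895, 959 and 946 in shARID1B.3, 422, 469 and 438 in shARID1A/B.2.3 and 1047, 968 and 1051 in shARID1A/B.4.2. FANCF was higher in shARID1A.2, shARID1B.2, shARID1B.3 and shARID1A/B.4.2 and lower in shARID1A.4 and shARID1A/B.2.3, in each case without overlap with Control, at log2 fold changes of 0.66, -0.89, 0.45, 0.22, -0.85 and 0.35 (SE 0.042 each, largest adjusted p = 6.2e-05 among called differences). The core subunits FANCA, FANCC and FANCG had -0.80, -0.73, -0.59, 0.01, -0.95 and -0.54, then -0.85, -1.09, -0.96, 0.15, -1.02 and -0.16, and -0.44, -1.25, -0.37, -0.07, -1.52 and -0.68. FANCE, which binds FANCD2, had -0.03, -0.91, -0.63, -0.20, -0.66 and -0.01 and was not called in shARID1A.2 or shARID1A/B.4.2. FANCL, the ubiquitin ligase, had -0.41, -0.53, -0.27, -0.06, -0.45 and -0.43, and the translocase FANCM had -0.50, -1.11, -0.18, -0.11, -1.06 and -0.52. FANCG fell by over 1 on the log2 scale in shARID1A.4 and shARID1A/B.2.3 and reached its lowest value there.

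Of the 6 end-joining genes, 5, 6, 6, 2, 6 and 5 were lower and 0, 0, 0, 2, 0 and 0 were higher. PRKDC encodes DNA-PKcs, the kinase that Ku brings to broken ends. PRKDC was at 33435, 33691 and 33239 in Control, 6618, 6484 and 6590.5 in shARID1A.2, 22134, 22193 and 22256 in shARID1A.4, 25296, 23756 and 24876 in shARID1B.2, 33045, 31255 and 32409 in shARID1B.3, 21894, 22289.5 and 21487 in shARID1A/B.2.3 and 5100.2, 4877 and 5000.4 in shARID1A/B.4.2. The shARID1A.2 and shARID1A/B.4.2 libraries lay far below all others, and the log2 fold changes were -2.35, -0.59, -0.44, -0.05, -0.61 and -2.74 (SE 0.023 each, largest adjusted p = 0.049 among called differences). The smallest of them, in shARID1B.3, turned positive with upper-quartile normalization. XRCC5 and XRCC6 encode the Ku heterodimer. XRCC5 was at 28586, 28164 and 28638 in Control, 20980.2, 21330.4 and 21354 in shARID1A.2, 22679.7, 23359 and 23202 in shARID1A.4, 25568, 25082 and 24822 in shARID1B.2, 28519, 29156 and 29775 in shARID1B.3, 22631, 22021 and 21928 in shARID1A/B.2.3 and 22211, 22346 and 22009.8 in shARID1A/B.4.2. XRCC6 was at 21406, 20589 and 20966 in Control, 17079.6, 17251 and 17445 in shARID1A.2, 16269, 16707 and 16457 in shARID1A.4, 17716, 18024 and 17311 in shARID1B.2, 20540.3, 21181 and 21205 in shARID1B.3, 17067, 16113 and 16272 in shARID1A/B.2.3 and 20439, 20891 and 20172 in shARID1A/B.4.2. XRCC5 fell in all but shARID1B.3 and XRCC6 in all but shARID1B.3 and shARID1A/B.4.2. XRCC5 had log2 fold changes of -0.42, -0.30, -0.18, 0.03, -0.36 and -0.36 (SE 0.019 each, largest adjusted p = 1.4e-08 among called differences). XRCC6 had -0.28, -0.35, -0.25, -0.00079, -0.35 and -0.03 (SE 0.023 each, largest adjusted p = 8.8e-10 among called differences), and its values in shARID1B.3 and shARID1A/B.4.2 turned positive under TMM, upper-quartile and total-read scaling.

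LIG4 is the ligase that seals the ends. LIG4 was at 1149, 1246 and 1208 in Control, 683, 693 and 739 in shARID1A.2, 759, 747 and 786 in shARID1A.4, 632, 612 and 629 in shARID1B.2, 747, 747 and 735 in shARID1B.3, 929, 963 and 984 in shARID1A/B.2.3 and 764, 684 and 742 in shARID1A/B.4.2. LIG4 was below Control in all 18 silenced libraries, with log2 fold changes of -0.77, -0.65, -0.94, -0.69, -0.32 and -0.72 (SE 0.044 each, largest adjusted p = 5.4e-07 among called differences), and fell least in shARID1A/B.2.3. Its partner XRCC4 had -0.64, -0.39, -0.61, 0.21, -0.63 and -0.38. TP53BP1 shields ends from resection. TP53BP1 was at 6976, 7133 and 6895 in Control, 7186, 7277 and 7272 in shARID1A.2, 4396, 4521 and 4439 in shARID1A.4, 6267, 6403 and 6362 in shARID1B.2, 7722, 8032 and 8044 in shARID1B.3, 3527, 3689.7 and 3539 in shARID1A/B.2.3 and 5476, 5357 and 5261 in shARID1A/B.4.2. TP53BP1 fell most in shARID1A/B.2.3 and shARID1A.4, did not pass the test in shARID1A.2 and was higher in shARID1B.3, at log2 fold changes of 0.05, -0.65, -0.14, 0.18, -0.97 and -0.38 (SE 0.023 each, largest adjusted p = 9.8e-06 among called differences).

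PARP1 and PARP2 sense DNA breaks by making poly(ADP-ribose), and POLQ is the polymerase of microhomology-mediated end joining. PARP1 was at 21781, 22147 and 21838 in Control, 15681, 15803 and 15573 in shARID1A.2, 21661, 22205 and 22071 in shARID1A.4, 17315, 17232 and 17189.7 in shARID1B.2, 23327, 23268 and 23762 in shARID1B.3, 20906, 20214 and 20444 in shARID1A/B.2.3 and 16269.8, 16122 and 16164 in shARID1A/B.4.2. POLQ was at 1636, 1742 and 1671 in Control, 965, 996 and 907 in shARID1A.2, 861, 928 and 936 in shARID1A.4, 1101, 1109 and 1056 in shARID1B.2, 1151, 1171 and 1207 in shARID1B.3, 899, 889 and 877 in shARID1A/B.2.3 and 943, 932 and 938 in shARID1A/B.4.2. PARP1 had log2 fold changes of -0.48, 0.0037, -0.35, 0.10, -0.10 and -0.44 (SE 0.017 each, largest adjusted p = 2.7e-05 among called differences), with no call in shARID1A.4 and a higher level in shARID1B.3. PARP2 had -0.49, -0.47, -0.26, 0.08, -0.78 and -0.23. POLQ was lower in all 18 silenced libraries, at -0.82, -0.89, -0.63, -0.52, -0.92 and -0.84 (SE 0.04 each, largest adjusted p = 3.1e-11 among called differences). The 2 mismatch repair genes moved in opposite directions. MSH6 recognises mispaired bases. MSH6 was at 6103, 6326 and 6184 in Control, 4503, 4574 and 4556 in shARID1A.2, 3764, 3848 and 3655 in shARID1A.4, 5473, 5559 and 5482 in shARID1B.2, 5816, 5469 and 5849 in shARID1B.3, 3919, 3764 and 3793 in shARID1A/B.2.3 and 4165, 4267 and 4107 in shARID1A/B.4.2. PMS2 cuts the strand to be replaced. PMS2 was at 1272, 1277 and 1264 in Control, 2092, 2062 and 2152 in shARID1A.2, 1939, 1848 and 1906 in shARID1A.4, 2067, 1833 and 1884 in shARID1B.2, 1666, 1592 and 1692 in shARID1B.3, 1597, 1475 and 1525 in shARID1A/B.2.3 and 1748, 1629 and 1582 in shARID1A/B.4.2. MSH6 fell in all 6 conditions, with log2 fold changes of -0.45, -0.72, -0.17, -0.12, -0.70 and -0.57 (SE 0.027 each, largest adjusted p = 0.00037 among called differences), and PMS2 rose in all 6, with 0.72, 0.58, 0.60, 0.38, 0.27 and 0.38 (SE 0.042 each, largest adjusted p = 3.8e-06 among called differences).

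The proliferation-linked members were then set against the end-joining and apical kinase members. The 18 proliferation-linked members are BRCA1, BRCA2, BARD1, BRIP1, RAD51AP1, RAD54L, RAD54B, XRCC2, BLM, EXO1, CHEK1, FANCA, FANCB, FANCD2, FANCI, UBE2T, POLQ and MSH6. They were listed from general knowledge of S and G2 phase expression, but with earlier results of these data known, so the contrast is a description only. The other list holds 10 members, XRCC4, XRCC5, XRCC6, LIG4, PRKDC, TP53BP1, PARP1, PARP2, ATM and ATR. In the proliferation-linked list 18, 18, 18, 7, 18 and 17 members were lower and 0, 0, 0, 4, 0 and 0 were higher, with medians of -0.86, -0.97, -0.56, -0.04, -1.14 and -0.73. In the end-joining and kinase list 8, 7, 9, 3, 8 and 8 members were lower and 1, 1, 0, 4, 1 and 0 were higher, with medians of -0.49, -0.37, -0.30, 0.06, -0.35 and -0.38. Of all genes tested, 38.2%, 36.6%, 34%, 32%, 34% and 36.1% were lower, with medians between 0.01 and 0.02. In shARID1B.3 the share called lower in either list lay near that of all genes. The proliferation-linked median was the lower of the 2 in all 6 conditions, and the difference between the medians was -0.37, -0.60, -0.26, -0.10, -0.79 and -0.35. Taken in single libraries, as the difference from the Control mean, it ran over -0.416 to -0.352, -0.651 to -0.572, -0.247 to -0.244, -0.103 to -0.0797, -0.797 to -0.746 and -0.365 to -0.361. In the 3 Control libraries it ran over -0.0167 to 0.014. These are measured from their own mean and so lie near 0 by construction, and the lack of overlap with them is no test. A median of fitted fold changes need not lie within the range of the libraries' own medians. Both medians were below Control in 5 conditions, and the gap between them was smallest in shARID1B.3 and largest in shARID1A/B.2.3. PRKDC in shARID1A.2 and shARID1A/B.4.2 was lower than any proliferation-linked member there.

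The remaining 21 members had medians of -0.36, -0.59, -0.30, 0.14, -0.49 and -0.37. As a reference, 16 proliferation genes that are not members, among them MKI67, MCM2 to MCM7, CCNA2 and CDK1, had medians of -1.21, -1.15, -0.63, -0.10, -1.16 and -1.09. These medians were lower than those of the proliferation-linked members in every condition, and in shARID1A/B.2.3 by the least. In replicate 2 of shARID1A/B.2.3 the order was reversed, at -1.15 for the reference and -1.17 for the proliferation-linked members. The other libraries of that condition kept the order. The part of the reference genes in the fall of the repair genes was not tested.

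**Figure D3:**
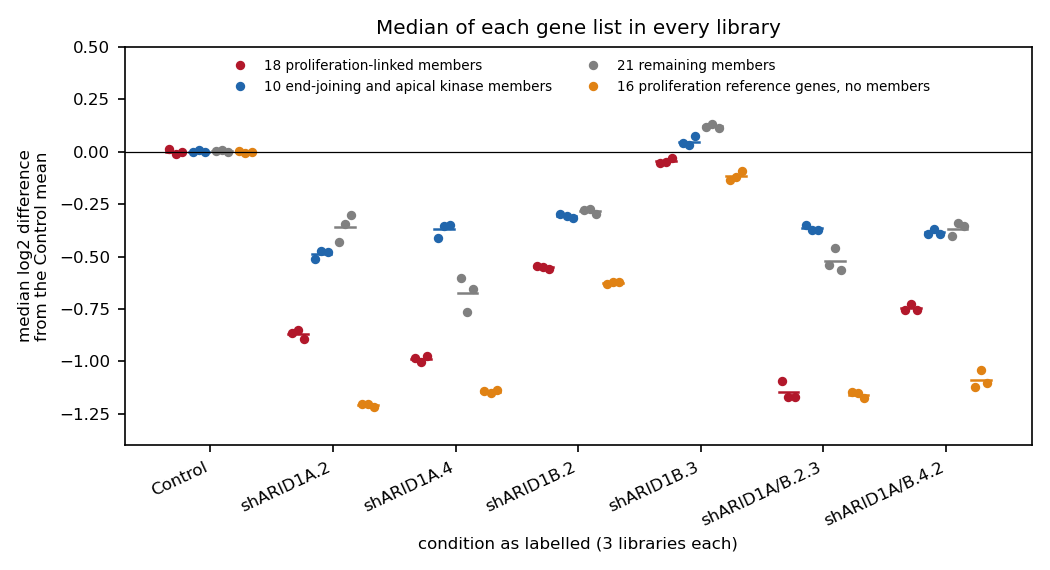
Median log2 difference from the Control mean (vertical axis) over each gene list in each of the 21 libraries, by condition as labelled. Dots are libraries and lines are means of 3. The proliferation-linked members are below the end-joining and kinase members in every silenced condition, and shARID1B.3 is the condition nearest to Control.

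The promoters of BLM and CHEK1, the proliferation-linked members with the lowest mean log2 fold changes, and of ATM, the end-joining and kinase member with the highest, are shown for the sequences in front of genes that fell and of 1 that did not. Each runs from 250 bases before to 50 after the start in RefSeq (GRCh38.p14), 5′ to 3′. Capitals mark matches to the motifs searched on both strands, which are the E2F letters TTTGGCGC, TTTCCCGC, TTTCGCGC and TTTGCCGC, the CHR letters TTTGAA and TTCGAA, and the CCAAT box, whose reverse complement reads ATTGG.
BLM (chr15:90717096-90717395, plus strand): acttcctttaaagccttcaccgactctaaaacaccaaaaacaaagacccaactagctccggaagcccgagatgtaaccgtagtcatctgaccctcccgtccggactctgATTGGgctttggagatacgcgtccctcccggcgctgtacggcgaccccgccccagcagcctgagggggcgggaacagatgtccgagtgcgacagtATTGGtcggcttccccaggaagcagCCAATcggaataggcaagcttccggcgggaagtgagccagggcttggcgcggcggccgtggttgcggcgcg
CHEK1 (chr11:125625979-125626278, plus strand): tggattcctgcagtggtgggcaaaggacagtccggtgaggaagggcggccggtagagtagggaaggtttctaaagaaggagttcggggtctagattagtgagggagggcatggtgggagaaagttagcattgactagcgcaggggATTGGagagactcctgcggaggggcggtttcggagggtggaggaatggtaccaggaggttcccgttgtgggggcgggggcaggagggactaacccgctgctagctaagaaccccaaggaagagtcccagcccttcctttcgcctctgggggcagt
ATM (chr11:108222817-108223116, plus strand): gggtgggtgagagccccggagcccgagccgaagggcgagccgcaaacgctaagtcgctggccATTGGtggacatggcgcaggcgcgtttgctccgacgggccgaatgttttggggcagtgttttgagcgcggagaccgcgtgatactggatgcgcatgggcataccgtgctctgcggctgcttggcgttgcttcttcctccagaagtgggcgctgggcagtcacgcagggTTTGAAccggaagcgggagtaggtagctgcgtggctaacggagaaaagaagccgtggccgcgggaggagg

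The BLM window holds 3 CCAAT box matches, which begin 141, 46 and 21 bases before the start. The CHEK1 window holds 1, 105 bases before it, and the ATM window holds 1 at 188 bases and a CHR match at 20 bases. None of the 3 windows holds the E2F letters, which says only that these letters are not there. Promoters were matched for 43 of the 49 members. The E2F letters were found in 9 of them (20.9%), against 3.33% of all 27305 promoters of the same length. The 9 are those of EXO1, FANCA, FANCC, FANCD2, MSH6, PMS2, TOPBP1, XRCC2 and XRCC6, which include PMS2, a gene that rose. By list, the E2F letters were in 5 of 16 proliferation-linked promoters (31.2%) and in 1 of 8 end-joining and kinase promoters (12.5%), which are few promoters. CHR matches were found in 14% of the members and 16.6% of all promoters, and CCAAT boxes in 46.5% and 35.7%. The other motifs did not share the E2F order of the lists. CHR matches were in 18.8% of the proliferation-linked promoters and 25% of the end-joining and kinase promoters, and CCAAT boxes in 50% of each. A match is a description of the letters and not of a bound factor.

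The shRNA conditions that share a target name differed from each other in most repair genes, as they did in most of all genes tested. Between shARID1A.2 and shARID1A.4, 15 members were lower in the first and 26 higher, where 37.3% and 38.4% of all genes were. With values scaled to total reads the split was 11 lower and 32 higher. Between shARID1A/B.2.3 and shARID1A/B.4.2, 32 were lower in the first and 10 higher, with a background of 37.8% and 37.1%. Between shARID1B.2 and shARID1B.3, 43 were lower in the first and 3 higher, with a background of 33% in each direction. The shARID1B pair thus differed mainly one way in these genes, and the higher members were RAD52, FANCF and PMS2. A difference of at least 1 on the log2 scale was called for 1 lower and 1 higher member in the shARID1A pair, where 9.56% and 14.3% of all genes passed, and for 6 and 1 in the shARID1A/B pair, where 12.7% and 9.57% did. In the shARID1B pair it was called for 1 lower member and no higher one, against 5.2% and 8.48% of all genes.

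PRKDC had the largest differences of the first 2 pairs, -1.76 for shARID1A.2 minus shARID1A.4 (SE 0.023, adjusted p = 1.3e-26) and 2.13 for shARID1A/B.2.3 minus shARID1A/B.4.2 (adjusted p = 3.9e-28). FANCF differed by 1.55 and -1.20, ATR by -0.91 and 0.83, and PALB2 by -0.68 and 0.64, and these 3 were called in opposite directions against Control within both pairs. RAD51C, WRN and RBBP8 were called in opposite directions within the shARID1A pair and not within the shARID1A/B pair. Within the shARID1B pair 13 members were, all lower in shARID1B.2 and higher in shARID1B.3, namely BRCA2, RAD51C, RAD51AP1, RAD54L, RAD54B, XRCC3, WRN, RBBP8, FANCC, XRCC4, TP53BP1, PARP1 and PARP2. By the same rule, which also asks that the conditions differ directly, 6, 3 and 13 members (12.2%, 6.12% and 26.5%) stood against 17.1%, 18.5% and 14.5% of all genes in the shARID1A, shARID1A/B and shARID1B pairs. The members' share was thus below that of all genes in the first 2 pairs and above it in the last. FANCC had the largest of the shARID1B differences, -1.11 (SE 0.038, adjusted p = 3.0e-18).

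**Figure D4:**
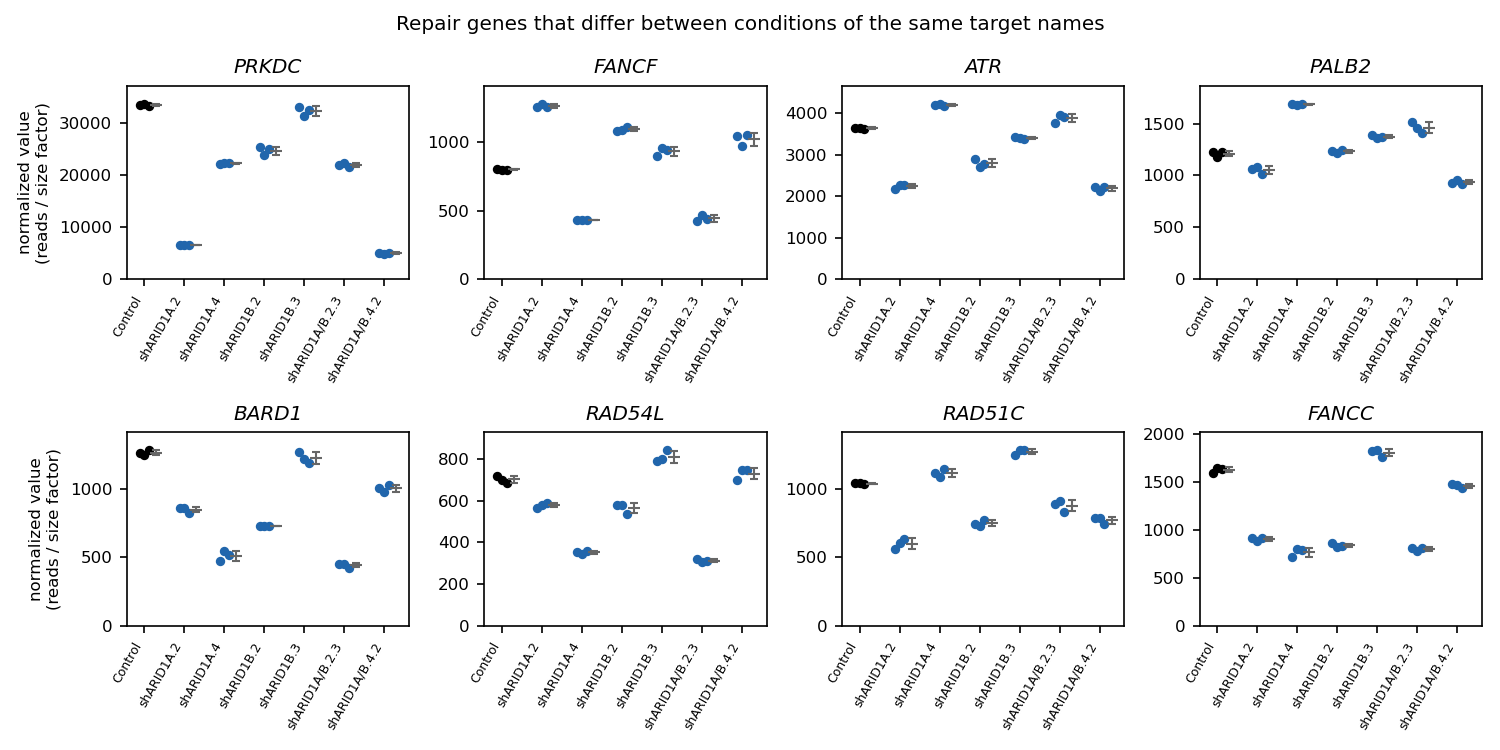
Normalized values (reads divided by the library's size factor, vertical axis from 0) of 8 repair genes in each of the 21 libraries, by condition as labelled. Dots are libraries, bars beside them give the mean ± SD of 3, and Control is black. PRKDC and ATR are lowest in shARID1A.2 and shARID1A/B.4.2, and FANCF, BARD1 and RAD54L are lowest in shARID1A.4 and shARID1A/B.2.3.

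The differences within the shARID1A pair and the shARID1A/B pair, which share no library, ran in opposite directions. Of 37 members called in both, 33 had opposite signs (89.2%), and over the 49 members Pearson's r was -0.87 and Spearman's rho was -0.83. This is a description across genes of the same libraries, which are not independent points. All genes tested did the same, with 90.7% opposite signs among 11816 called in both and r = -0.79 over 18584 genes, so the pattern is not particular to repair genes. The pairing of shARID1A.2 with shARID1A/B.4.2 and of shARID1A.4 with shARID1A/B.2.3 can be read in the values of PRKDC, ATR, FANCF, BARD1, RAD54L and TP53BP1 given above.

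**Figure D5:**
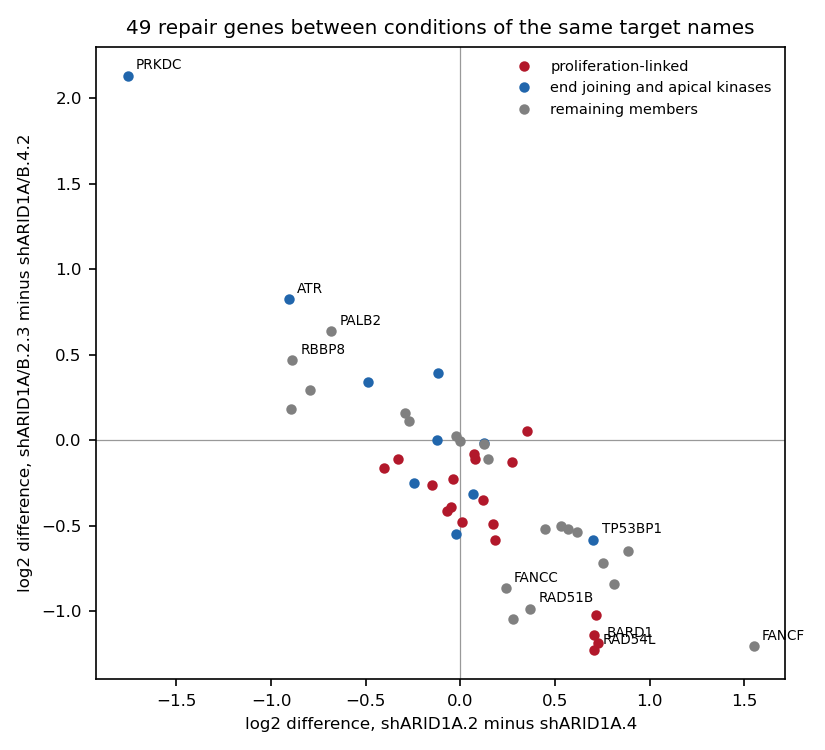
Log2 difference of each of the 49 repair genes between shARID1A.2 and shARID1A.4 (horizontal axis) and between shARID1A/B.2.3 and shARID1A/B.4.2 (vertical axis), means of 3 libraries. Points are genes, coloured by list, and most lie in the upper left and lower right, with PRKDC and FANCF at the ends.

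Of 81 further genes of these pathways listed, 80 were tested, and 46, 52, 43, 25, 54 and 44 were lower and 21, 21, 22, 29, 19 and 20 were higher. Their shares called lower were 57.5%, 65%, 53.8%, 31.2%, 67.5% and 55%, beside 38.2%, 36.6%, 34%, 32%, 34% and 36.1% of all genes. Of the 14 further checkpoint genes, 13, 13, 12, 5, 12 and 11 were lower, and of the 14 Holliday junction and crosslink nuclease genes, 9, 10, 10, 7, 11 and 9 were. Of the 13 genes of break ubiquitination and shieldin, 7, 5, 6, 5, 4 and 5 were lower and 4, 8, 5, 5, 6 and 6 were higher, and the shares lower, 53.8%, 38.5%, 46.2%, 38.5%, 30.8% and 38.5%, lay near those of all genes in several conditions. CLSPN, the mediator between ATR and CHEK1, had log2 fold changes of -2.15, -1.12, -1.10, -0.09, -1.17 and -1.51. USP1, which removes ubiquitin from FANCD2, had -1.08, -2.16, -0.44, -1.19, -0.95 and -0.99, and GEN1, a Holliday junction resolvase, had -1.16, -1.53, -0.72, -0.16, -1.68 and -0.95. These 3 had the lowest means of the list, and all their values passed the test except that of CLSPN in shARID1B.3. At the other end, ABRAXAS1, a scaffold of the BRCA1-A complex, had 1.05, 0.57, 0.14, 0.52, 0.12 and 0.65, all called, and the polymerase POLL had 1.13, 0.37, 0.48, 0.41, 0.09 and 0.70, all called but that in shARID1A/B.2.3. RAD51AP2 had the highest mean but rested on few reads, with normalized values of 3.52, 2.24 and 6.16 in Control and log2 fold changes of 1.59, 1.73, 0.70, 0.23, 1.69 and 1.63 (SE 0.37).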

How the data were processed

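RNA-Seq of 21 libraries of SK-N-BE(2) cells, 3 in each of 7 conditions taken from the labels, was used. Per the labels, RNA was made into stranded polyadenylated libraries, and the submitters' processing notes name STAR 2.5.3a, RSEM 1.3.0, DESeq2 1.26.0 and GRCh38. The annotation release and the strand setting of the counting are not given in the sources used here. The authors deposited a signal per gene, which is reads divided by 1 size factor per library. Whole reads were recovered for 100% of values within 0.05 read, and edgeR's tests used them as alternatives. The authors' 3 tables of their own comparisons, with fold changes and p-values, were not used.

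Log2(value + 1) was fitted with limma 3.58.1 (trend) in R 4.3.3 over all 7 conditions and the 18584 genes kept by edgeR's filter on low reads. Fold changes are on this scale, which understates those of low genes. P-values were adjusted by Benjamini-Hochberg over these genes, and calls used 0.05. The written design named edgeR's test for counts and limma for a scaled signal, and the latter was used. Lists were described by counts and medians. The members and lists were chosen with earlier results of these data known. Values in every library are given for 17 chosen members and for the lowest and highest member of each role by mean log2 fold change. The FANCI, NBN, PRKDC, RAD54B, WRN and XRCC5 promoters and the proteins were not used here. The genes of the panels that show 8 members differing between conditions, and the divergent neighbours, were chosen after their values were seen. Gene positions, exon lengths and neighbour distances are from GENCODE release 29, and promoters from RefSeq. These sources place the starts of ATM and CHEK1 differently. Chi-square over its degrees of freedom was 1.55 to 4.26 in the 21 pairs of replicate libraries, above sampling noise, and all were kept as separate. Reads of 18584 genes were simulated with means pooled over all 21 libraries and a fixed spread, and changes were set in shARID1A.2. There limma found 65 of 66 genes changed 4 times against Control. Only a small part of the genes was changed, where most genes were called in the data, so the scaling was not checked. Low genes with small changes were missed. Alternatives were edgeR 4.0.16 with TMM, upper-quartile and RLE normalization, DESeq2 1.42.0, scaling to total reads, pseudocounts of 0.5 and 5, no filter, at least 10 reads in every library, the compared libraries alone, a log2 limit of 1, a replicate block, and each library left out. Tables and figures used Python 3.11.15, pandas 2.3.3 and matplotlib 3.10.9.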

Additional observations from a re-analysis of the deposited data

Results flagged for a closer look

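In direct tests with limma, 41 of the 49 members differed between shARID1A.2 and shARID1A.4, 42 between shARID1A/B.2.3 and shARID1A/B.4.2, and 46 between shARID1B.2 and shARID1B.3. These counts are read against the shares of all genes called in the same comparisons, given above, by which most of all genes differed too.

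Some members for which values in every library are given were called in opposite directions against Control within such a pair. ATR differed by -0.91 between shARID1A.2 and shARID1A.4 (adjusted p = 1.3e-19) and by 0.83 between shARID1A/B.2.3 and shARID1A/B.4.2 (adjusted p = 9.9e-19). FANCF differed by 1.55 (adjusted p = 1.0e-20) and by -1.20 (adjusted p = 2.0e-18) in the same pairs. Between shARID1B.2 and shARID1B.3, BRCA2 differed by -0.69, RAD51AP1 by -0.35, TP53BP1 by -0.32 and PARP1 by -0.44, with adjusted p of 1.9e-11, 1.3e-07, 8.0e-12 and 3.2e-17 in limma. All are log2 differences of the first condition minus the second over 3 libraries each. The same transcripts were low in both conditions of each pair, but not by equal amounts. ARID1B differed by -0.47 between shARID1A.2 and shARID1A.4 and by 0.45 between shARID1A/B.2.3 and shARID1A/B.4.2. ARID1A differed by -0.37 between shARID1B.2 and shARID1B.3. ARID1B differed by -0.28 in that pair too, being lower than Control in shARID1B.2 (-0.21) and higher in shARID1B.3 (0.07). The part of these differences in those of the repair genes was not tested.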

How the results depend on the processing

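Member counts in all 9 comparisons stayed within 1.5 times their value under DESeq2, edgeR with TMM or RLE, both pseudocounts, no filter, the filter of 10 reads, the compared libraries alone and each library left out. Upper-quartile normalization and scaling to total reads each raised the members higher in shARID1A/B.4.2 from 3 to 9. Requiring a log2 change of 1 left 6, 13, 0, 0, 19 and 5 members lower and 0 higher against Control. The shares of all genes given above for this limit cover falls only. Within the pairs it left 1 lower and 1 higher for shARID1A, 6 and 1 for shARID1A/B, and 1 and 0 for shARID1B, where 9.56% and 14.3%, 12.7% and 9.57%, and 5.2% and 8.48% of all genes passed.

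The median difference between proliferation-linked and end-joining and kinase members kept its sign throughout. In shARID1B.2 it was -0.259 with TMM and -0.259 with upper-quartile normalization. With 1 library left out it was -0.265 to -0.242 in shARID1B.2, -0.0997 to -0.0870 in shARID1B.3 and -0.363 to -0.336 in shARID1A/B.4.2.

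Signs turned for genes near Control. With TMM, upper-quartile normalization and total reads in turn, XRCC6 was 0.00132, 0.129 and 0.153 and RAD50 0.0124, 0.140 and 0.166 in shARID1A/B.4.2, and FANCB 0.0121, 0.0449 and 0.0134 and XRCC6 0.0260, 0.0588 and 0.0275 in shARID1B.3. XRCC6 in shARID1B.3 was 0.00148 with RLE and 0.00153 with DESeq2. With upper-quartile normalization and total reads, ATM was 0.102 and 0.127 in shARID1A/B.4.2 and 0.0323 and 0.0472 in shARID1B.2. With upper-quartile normalization, FANCD2 was 0.0178 and PRKDC 0.00595 in shARID1B.3. With 1 library left out, the range was -0.0416 to 0.0168 for FANCB in shARID1B.3, above 0 without Control replicate 1 (0.0168) or shARID1B.3 replicate 1 (0.00174). It was -0.0145 to 0.0142 for XRCC6 there, above 0 without the same libraries (0.0136 and 0.0142). It was -0.0397 to 0.532 for RAD51AP2 there, below 0 without Control replicate 2 or shARID1B.3 replicate 2 (-0.00245). It was -0.00371 to 0.0142 for PARP1 in shARID1A.4, below 0 without shARID1A.4 replicate 2 or Control replicate 1 (-0.000928). The cause was not tested.

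The labels number the libraries 1 to 3 in every condition. Over 63 pairs of libraries with the same number the correlation of their deviations was -0.0879 to 0.0529, none over 0.1, so the numbers were not taken to pair the libraries. With the replicate number as a block, 43 members were lower in shARID1B.2 in place of 42 and 6 were higher in shARID1A.2 in place of 5, and the other counts were unchanged. RAD51AP2 and RAD51B are the genes whose depth limits their values most among those named.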

Other observations

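Of the 49 repair genes, 20 have a protein-coding neighbour on the other strand whose start lies within 1000 bases in GENCODE release 29. MCM4, a subunit of the replicative helicase, starts 2 bases from PRKDC. Its log2 fold changes against Control were -1.39, -1.20, -0.60, -0.13, -1.19 and -1.12 (SE 0.024, largest adjusted p = 6.9e-05 in limma), against -2.35, -0.59, -0.44, -0.05, -0.61 and -2.74 for PRKDC. MCM4 was thus lower in all 6 conditions, by similar amounts in shARID1A.2, shARID1A.4 and both shARID1A/B conditions, where PRKDC was far lower in shARID1A.2 and shARID1A/B.4.2 than in the other 2.

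NPAT, an activator of histone genes, starts 158 bases from the GENCODE start of ATM in an overlapping arrangement. The RefSeq start used for the ATM promoter is another one. NPAT had log2 fold changes of -0.85, -0.78, -0.36, -0.43, -0.54 and -0.71 (SE 0.031, largest adjusted p = 2.5e-10) and was lower in all 6 conditions, while ATM passed the test in 1. ABHD13 starts 11 bases from LIG4, and both were lower in all 6 conditions, ABHD13 with -0.72, -0.15, -0.45, -0.24, -0.23 and -0.41 (SE 0.044). DCTN5, a dynactin subunit 82 bases from PALB2, had -0.53, 0.32, -0.10, -0.46, 0.50 and -0.75 (SE 0.023) and shared the direction of PALB2 in shARID1A.2, shARID1A.4 and both shARID1A/B conditions. AIMP2, 120 bases from PMS2, had -0.42, 0.35, -0.35, 0.23, 0.17 and 0.06 (SE 0.031), lower in shARID1A.2 and shARID1B.2, where PMS2 was higher. The strand setting of the counting is not given, so reads of overlapping starts may be shared between neighbours. These neighbours were chosen after their values were seen.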
